A study of Mus musculus with 6 samples.

Results

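The genes described here are 8 enzyme genes of heme synthesis, Alas1, Alas2, Alad, Uros, Urod, Cpox, Ppox and Fech, taken by name from a table of 16440 genes. All 8 were found in the table. All 8 also passed the filter on low values (1 or more in 3 or more of the 6 libraries), as did 14595 genes in all. They were compared between 3 RNA-seq libraries of normal myeloid progenitors (MPs) and 3 of c-Kit+ acute promyelocytic leukemia (APL) progenitors, all from FVB N/J mice. Normal MPs were bone marrow cells sorted as Lin-Sca-1-c-Kit+, a gate that holds granulocytic, monocytic, erythroid and megakaryocytic progenitors together. The APL cells carried the hMRP8-PML/RARα transgene, in which a myeloid promoter drives the human fusion gene. They had been labelled with GFP by the retroviral vector MigR1, expanded by transplantation into syngeneic mice and sorted as GFP-labeled c-Kit+ cells. No drug treatment is given in the labels of either group. The libraries are labelled as biological replicates, with no statement that each came from a separate mouse, so p-values measure the spread between these libraries.

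Heme is built in a chain of enzymes that starts and ends in the mitochondrion. ALA synthase joins glycine and succinyl-CoA to aminolevulinic acid (ALA) and is the rate-limiting enzyme. It exists in a form used by all tissues, encoded by Alas1 and repressed by heme, and in an erythroid form, encoded by Alas2, which GATA1 activates and which is also controlled by iron through its mRNA. Alad, Uros and Urod encode cytosolic enzymes that join ALA into pyrrole units, close the ring and trim its side chains. Cpox, Ppox and Fech encode the mitochondrial enzymes that oxidise the ring and insert iron. Red cell precursors make heme for hemoglobin, and granulocytic precursors make it for myeloperoxidase, the peroxidase of primary granules.

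The regions just before the start sites of 4 of the genes are shown because these genes had the increase and the larger decreases described below. Each run is the 250 bases before the start site, read in the direction of transcription, from RefSeq on GRCm38.p6. Capitals mark matches on either strand to a GATA motif, to CACCC, or to a GC box (GGGCGG), some of which overlap each other. A GATA motif was counted where the letters GATA followed an A or a T and were followed by an A or a G.
Alas1, chr9:106247955-106248204, minus strand: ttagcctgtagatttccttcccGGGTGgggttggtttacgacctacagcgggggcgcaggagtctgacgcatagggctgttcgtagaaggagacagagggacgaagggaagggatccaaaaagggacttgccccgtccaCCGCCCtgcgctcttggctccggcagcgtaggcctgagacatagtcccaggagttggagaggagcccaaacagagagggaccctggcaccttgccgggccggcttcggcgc
Alas2, chrX:150547167-150547416, plus strand: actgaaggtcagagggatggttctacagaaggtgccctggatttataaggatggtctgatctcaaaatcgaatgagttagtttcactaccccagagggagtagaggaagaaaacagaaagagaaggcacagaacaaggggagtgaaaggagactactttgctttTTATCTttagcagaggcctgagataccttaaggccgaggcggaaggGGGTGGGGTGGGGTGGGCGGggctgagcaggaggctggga
Alad, chr4:62520064-62520313, minus strand: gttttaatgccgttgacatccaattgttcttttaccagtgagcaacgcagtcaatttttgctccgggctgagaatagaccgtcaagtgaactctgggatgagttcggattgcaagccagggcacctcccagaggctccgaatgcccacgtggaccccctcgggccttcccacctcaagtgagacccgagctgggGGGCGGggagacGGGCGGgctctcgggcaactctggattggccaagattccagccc
Cpox, chr16:58669958-58670207, plus strand: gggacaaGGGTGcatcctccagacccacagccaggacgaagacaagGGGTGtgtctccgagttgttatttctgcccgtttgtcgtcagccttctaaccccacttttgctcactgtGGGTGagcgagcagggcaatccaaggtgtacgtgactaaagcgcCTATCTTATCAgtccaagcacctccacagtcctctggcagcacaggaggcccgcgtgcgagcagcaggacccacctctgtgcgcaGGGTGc

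Of the 8 genes, 7 had such a region, some with more than 1 start site, for 10 regions in all. Of these 10 regions, 3 held a GATA motif, namely those of Alas2, of Cpox and of the downstream start site of Uros. A GATA motif was found in 26.5% of the 32851 regions of all genes. In Alas2 it began 86 bases before the start, and in Cpox a pair that overlap began 91 and 86 bases before it, all read on the opposite strand. Alas1, Alad, Urod and Ppox held none in the regions searched. CACCC was found in 52% of all regions, with 3 matches in Alas2, 4 in Cpox, 1 in each of the Alas1 regions and 1 at the downstream start site of Alad. A GC box was found in 32.7% of all regions, with 2 matches in the Alad region shown and 1 each in those of Alas1 and Alas2. The motif of NF-E2 (TGAGTCA), found in 4.46% of all regions, was in none of the 10. These are matches of letters and not measured binding.

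Values are given as scaled fragments, the number of sequenced fragments assigned to a gene after division by a factor of each library, and, where genes are set against each other, as FPKM (fragments relative to transcript length and sequencing depth). The library factor was inferred from the values themselves. Before scaling by it, MP libraries held between 22976881 and 26932357 fragments and APL libraries between 20608715 and 28382785. The profile of MP library 3 lay at root mean square log2 distances of 0.343 and 0.336 from MP libraries 1 and 2 over 10310 genes, against 0.264 between those 2. Of the genes used for sorting, Kit had 10668 ± 272 scaled fragments in MPs and 5929 ± 132 in APL progenitors (SD, n = 3 each). Ly6a, which encodes Sca-1, had 27.2 ± 7.09 and 43.4 ± 4.99 (adjusted p = 0.043 from limma), a call lost without MP library 1 or any 1 of the APL libraries, and with no filter, equal totals, voom weights or FPKM with a pseudocount of 1. A gene was called higher or lower when it passed both an adjusted p of 0.05 (limma, adjusted over all 14595 genes by Benjamini-Hochberg) and a 1.5-fold change. All fold changes are of APL progenitors against MPs on the scale of log2(scaled fragments + 1).

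In c-Kit+ APL progenitors, 6 of the 8 genes were downregulated and 1 was upregulated. Alas1 rose 1.76-fold, while Alas2, Alad, Cpox, Uros, Urod and Fech fell, between 8.24-fold for Alas2 (10-fold in plain means, without the added 1) and 1.72-fold for Fech. Ppox fell short of the fold threshold at 1.4-fold lower. Over all genes tested, 24.4% were called lower and 21.7% higher, or 46.1% in either direction. All 8 passed the adjusted p with no limit on the fold, as did 67% of all genes. Their median on the log2 scale was -1.30, against -0.10 over all genes tested. For 7 genes all APL libraries lay below all MP libraries, an arrangement of 39.8% of all genes tested. For Alas1 they lay above, as for 31.1% of all genes. Groups without overlap were thus common, at 70.9% of all genes in either direction. An exact permutation test of 3 libraries against 3 gave p = 0.1 for each of the 8 genes (two-sided), the smallest p it can give.

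**Figure D1:**
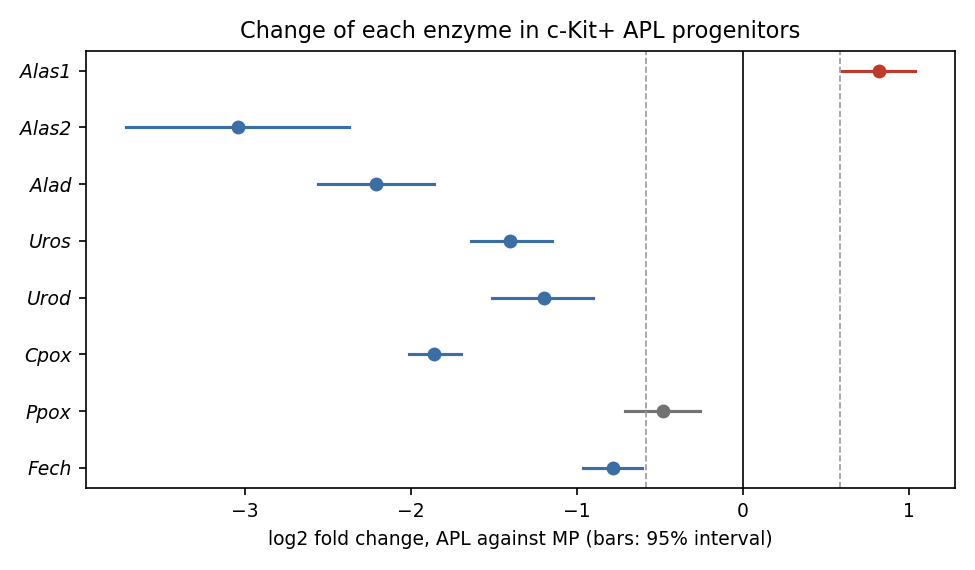
Log2 fold change of each enzyme gene in c-Kit+ APL progenitors against normal MPs, with 95% intervals from limma (3 libraries each); blue marks genes called lower, red higher, grey not called, and dashed lines a 1.5-fold change. Alas1 alone lies to the right of 0, at 0.82, and Ppox, at -0.48, has an interval that crosses the dashed line.

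Alas1 (Entrez 11655, chromosome 9 from 106233455 to 106247954 on GRCm38) had the highest mean FPKM of the 8 in both groups, beside Alad in MPs. MP libraries 1 to 3 held 12176, 10178 and 10437 scaled fragments of it, and APL libraries 1 to 3 held 18246, 20270 and 19217. Every APL library was above the highest MP library. This is an increase of 0.82 on the log2 scale (SE 0.10, 95% interval 0.60 to 1.04, adjusted p = 7.3e-05 from limma). Larger increases were found for 18.2% of all genes tested. In a test against a fold change of 1.5 in place of 0, and at a threshold of 2-fold, Alas1 was no longer called.

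Alas2 (Entrez 11656, chromosome X from 150547417 to 150570622), the erythroid form, was rare in both groups. MP libraries 1 to 3 held 49.6, 32.4 and 54.1 scaled fragments of it. APL libraries 1 to 3 held 4.71, 5.2 and 3.7, which were 4, 6 and 3 fragments before scaling by the inferred factor. The groups did not overlap, but the APL values rest on few fragments. The log2 fold change of -3.04 had a standard error of 0.30 (95% interval -3.72 to -2.37, adjusted p = 2.2e-05 from limma). A larger decrease was found for 6.89% of all genes tested. In FPKM, Alas2 had 0.9, 0.598 and 0.971 in MPs and 0.0894, 0.0958 and 0.0669 in APL progenitors, below the filter for a test on FPKM.

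Per length, Alas2 therefore made up a small part of the ALA synthase mRNA. Relative to Alas1, its FPKM was 0.534%, 0.425% and 0.686% in the MP libraries, against 0.0356%, 0.0342% and 0.0251% in APL. The log2 ratio of Alas2 to Alas1 was -7.54 ± 0.35 in MPs and -11.64 ± 0.28 in APL progenitors (SD, n = 3 each), a difference of -4.11 or 17.2-fold. The groups did not overlap, and the two-sided exact permutation p was 0.1, the smallest possible. With 0.1 added to both FPKM values, the difference was -3.13.

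All 3 cytosolic enzymes fell. Alad (Entrez 17025, chromosome 4 from 62509170 to 62520063), which joins ALA into porphobilinogen, was at 3397, 3638 and 4956 scaled fragments in the MP libraries, against 716, 932 and 926 in APL. MP library 3 was the highest, and no APL library came near the MP range. Its log2 fold change of -2.21 (SE 0.15, adjusted p = 2.6e-06 from limma) became -2.04 without MP library 3. Urod (Entrez 22275, chromosome 4 from 116990217 to 116994375), the decarboxylase, was at 1993, 1972 and 2795 in the MP libraries, against 886, 994 and 1019 in APL. MP library 3 was again the highest. Urod changed by -1.20 on the log2 scale (SE 0.14, adjusted p = 5.5e-05 from limma), or by -1.04 without that library. Uros (Entrez 22276, chromosome 7 from 133686330 to 133709295), which closes the ring, was at 618, 658 and 651 in the MP libraries, against 217, 253 and 263 in APL, a 2.63-fold decrease (log2 -1.40, SE 0.11, adjusted p = 4.4e-06 from limma). In Uros, MP library 3 did not stand out.

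Of the mitochondrial enzymes at the end of the chain, Cpox and Fech fell and Ppox was not called. Cpox (Entrez 12892, chromosome 16 from 58670208 to 58680389), coproporphyrinogen oxidase, was at 5730, 6428 and 6152 scaled fragments in the MP libraries, against 1646, 1717 and 1686 in APL. These were narrow ranges in both groups, with coefficients of variation of 5.76% and 2.11%, against medians of 12.3% and 8.47% over all genes tested. Cpox changed by -1.86 on the log2 scale (SE 0.07, adjusted p = 6.4e-08 from limma). Fech (Entrez 14151, chromosome 18 from 64456550 to 64489066), ferrochelatase, which inserts the iron, was at 2408, 2300 and 2645 in the MP libraries, against 1342, 1469 and 1455 in APL. Its log2 fold change of -0.78 (SE 0.08, 95% interval -0.96 to -0.61, adjusted p = 2.5e-05 from limma) passed the 1.5-fold threshold, but not 2-fold or the test against 1.5-fold. Ppox (Entrez 19044, chromosome 1 from 171276992 to 171281186), protoporphyrinogen oxidase, was at 628, 606 and 686 in the MP libraries, against 438, 506 and 432 in APL. The APL values lay below the MP values without overlap, with a log2 fold change of -0.48 and a 95% interval from -0.71 to -0.26 (adjusted p = 0.0023 from limma). Scaled to equal library totals or fitted with voom weights, Ppox had -0.61 and was called. These settings moved the median of all genes from -0.10 to -0.23, and relative to that median Ppox was at -0.38 in each of the 3 fits.

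**Figure D2:**
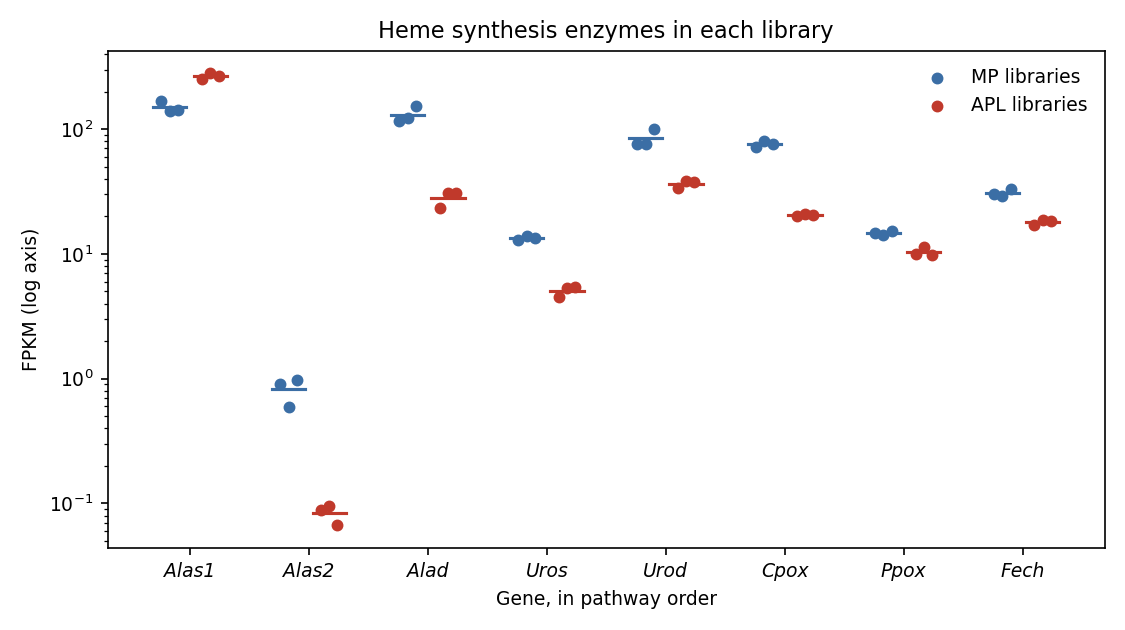
FPKM of the 8 enzyme genes in each library on a log axis, with blue points for the 3 MP libraries, red points for the 3 APL libraries and bars for the group means. Alas1 lies higher in APL libraries (266 against 150) and every other gene lower, and Alas2 lies below 1 in all libraries.

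The order of the levels also differed between the groups. In MPs, FPKM was 150 ± 15.8 for Alas1, 131 ± 20.4 for Alad, 84.2 ± 14.2 for Urod, 76 ± 3.83 for Cpox, 30.9 ± 2.01 for Fech, 14.6 ± 0.571 for Ppox, 13.4 ± 0.378 for Uros and 0.823 ± 0.198 for Alas2 (SD, n = 3). Alas1 and Alad overlapped there, as did Urod and Cpox, and the other neighbours in the order did not. In APL progenitors, it was 266 ± 14.4 for Alas1, 36.6 ± 2.61 for Urod, 28.3 ± 4.14 for Alad, 20.6 ± 0.331 for Cpox, 18 ± 0.755 for Fech, 10.4 ± 0.888 for Ppox, 5.08 ± 0.47 for Uros and 0.0841 ± 0.0152 for Alas2, with no overlap between any neighbours. Alad thus changed from the level of Alas1 to a place below Urod.

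The mRNA of the chain was more evenly shared in MPs than in APL progenitors. Alas1 made up 34.2%, 29.5% and 26.5% of the summed FPKM of the 8 genes in the MP libraries, against 69.7%, 69.1% and 68.5% in APL. The share of Alad went from 26.1% ± 2.62 to 7.32% ± 0.704 and that of Cpox from 15.2% ± 1.34 to 5.35% ± 0.237 (SD, n = 3 each). Ppox had a share of 2.92% ± 0.0663 in MPs and 2.7% ± 0.162 in APL progenitors. The FPKM of Alas1 was 0.918 to 1.45 times that of Alad in MPs and 8.72 to 10.7 times in APL progenitors. Against Fech it was 4.27 to 5.55 times and 14.7 to 15.1 times. The sum over the 8 genes was 477 to 535 in MP libraries and 360 to 405 in APL libraries. Without Alas1 it was 324 to 394 and 109 to 125.

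**Figure D3:**
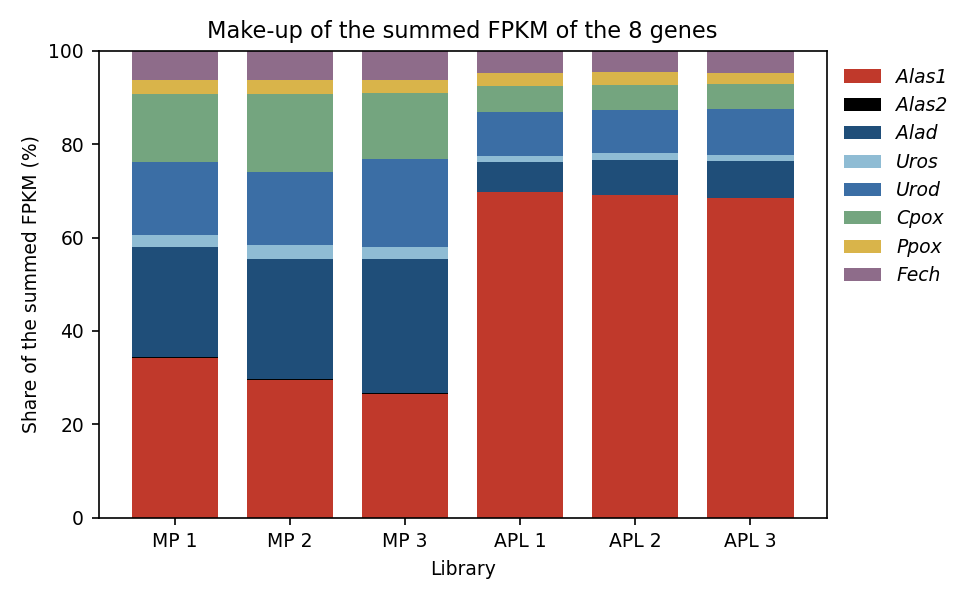
Share of the summed FPKM of the 8 genes held by each gene, in percent, stacked for each of the 3 MP and 3 APL libraries. The Alas1 block fills 26.5% to 34.2% of the MP bars and 68.5% to 69.7% of the APL bars, and the Alas2 block is too thin to see in most bars.

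Genes with the most similar profiles to the ALA synthase genes were sought by the root mean square distance of log2 values, each centred on the gene's mean over the 6 libraries. For Alas1 they were 1190002H23Rik (0.032), Nlrp1b (0.0455) and Itgal (0.0474), with log2 fold changes of 0.83, 0.79 and 0.76. For Alas2 they were Cd74 (0.122), Trpv5 (0.131) and Cpt1c (0.142). Their log2 fold changes were -2.93, -2.93 and -2.90, and Trpv5 was rare, with 6.79 scaled fragments on average in MPs and 0 in APL progenitors.

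Of the 8 genes for the supply of glycine and succinyl-CoA, 1 was lower and 1 higher (46.1% of all genes were called in either direction), with a median log2 fold change of -0.27. With no limit on the fold, 5 were lower and 1 higher, and in 7 of the 8 the groups did not overlap (70.9% of all genes). Slc6a9, a glycine transporter of the plasma membrane, rose from 25.1 ± 1.63 to 68.7 ± 10.1 scaled fragments (adjusted p = 3.1e-04 from limma), but its locus overlaps that of Ccdc24 and fragments may have been divided between them. Suclg1, a subunit of succinyl-CoA ligase, fell from 2979 ± 391 to 1837 ± 103 (log2 -0.69, adjusted p = 2.6e-04 from limma). Sucla2, Suclg2, Ogdh and Dlst passed the adjusted p with folds under 1.5 (log2 -0.45 for Dlst), and Shmt2 and Dld did not pass it.

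Iron-sulfur clusters are made in the same organelle and are carried by ferrochelatase. Of 15 genes of their assembly, 10 were lower and 0 higher (24.4% and 21.7% of all genes tested), with a median log2 fold change of -1.07. None was higher with limma at an unadjusted p under 0.05 either, or under any alternative tried. Iba57, which helps to place clusters in mitochondrial enzymes, fell from 684 ± 90.2 to 178 ± 30.9 scaled fragments (log2 -1.94, adjusted p = 5.8e-06 from limma). Hspa9 and Fdx1l passed the adjusted p with folds under 1.5 (log2 -0.55 and -0.53), and Iscu, Fdxr and Nfu1 did not pass it.

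Of 16 transporters and related genes of mitochondria and heme, 5 were lower, 2 higher and 9 not called, with a median of -0.47. Of all genes tested, 46.1% were called in either direction, 24.4% lower and 21.7% higher. Slc25a38, which imports glycine into the mitochondrion, was at 845, 844 and 998 scaled fragments in the MP libraries, against 412, 459 and 479 in APL (log2 -0.99, adjusted p = 3.3e-05 from limma). Tspo2, an erythroid relative of the translocator protein Tspo, had 104, 89.5 and 142 scaled fragments in MPs and none in APL libraries, so that it was at least 30.2-fold lower when set against 3 fragments per library. Abcg2, an exporter of porphyrins and drugs, fell from 1122 ± 153 to 239 ± 17.5 (-2.22, adjusted p = 4.9e-07). Slc48a1, which moves heme out of lysosomes, rose from 3107 ± 316 to 9145 ± 710 (1.56, adjusted p = 1.1e-06), and Tspo from 2568 ± 289 to 4022 ± 310 (0.65, adjusted p = 3.2e-04). Slc48a1 and Tspo lie on chromosome 15, whose 563 genes tested had a median log2 fold change of 0.46 against -0.12 elsewhere. The locus of Slc48a1 overlaps that of Hdac7. Tspo was not called with quantile normalization, equal totals, voom weights or without MP library 2 (0.52 to 0.58).

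Heme breakdown showed changes in both directions, with 2 of 4 genes lower and 1 higher (24.4% and 21.7% of all genes tested). Hmox1, heme oxygenase, was at 98.3, 78.1 and 168 scaled fragments in the MP libraries, against 271, 323 and 278 in APL (log2 1.40, SE 0.26, adjusted p = 0.0011 from limma). It lies on chromosome 8, whose 778 genes tested had a median of 0.48 against -0.13 elsewhere. Blvrb, which reduces biliverdin and is abundant in red cells, fell from 2611 ± 668 to 498 ± 83.8 (-2.37, adjusted p = 4.5e-06), and Blvra fell with -0.70 (adjusted p = 0.0011), but not past the fold threshold without MP library 3 (-0.56). Hmox2 was not called. None of Cox10, Cox15 and Hccs, whose products make heme a or attach heme c, was called with limma at the adjusted p and fold above. Of all genes tested, 46.1% were called in either direction, and a list of 3 genes is short. Cox10 and Cox15 passed the adjusted p with folds under 1.5 (log2 -0.58 and -0.27, adjusted p = 2.9e-04 and 0.016 from limma). Under the alternatives, 0 to 2 of the 3 were lower.

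Among 10 genes of heme-containing proteins, 6 were higher and 1 lower (21.7% and 24.4% of all genes tested). Mpo, myeloperoxidase, was at 230111, 211340 and 225149 scaled fragments in the MP libraries, against 459396, 558727 and 535397 in APL (log2 1.22, SE 0.25, adjusted p = 0.0022 from limma). Lpo, a peroxidase of secretions, and Ptgs2, an inducible cyclooxygenase, had 2.68 (adjusted p = 1.8e-04) and 3.88 (adjusted p = 3.0e-05) at low levels. Epx, eosinophil peroxidase, fell from 777 ± 319 to 131 ± 26.7 (-2.51, adjusted p = 3.4e-05). Of the globins, Hba-a1 fell from 642 ± 215 to 89.2 ± 40.7 scaled fragments and Hbb-b2 from 42 ± 21.6 to 15.1 ± 2.57, but each shares its locus with its near-identical copy, and Hbb-b2 lost its call without MP library 1 or APL library 3 and with quantile normalization (log2 -0.71 to -1.18, against -1.29).

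**Figure D4:**
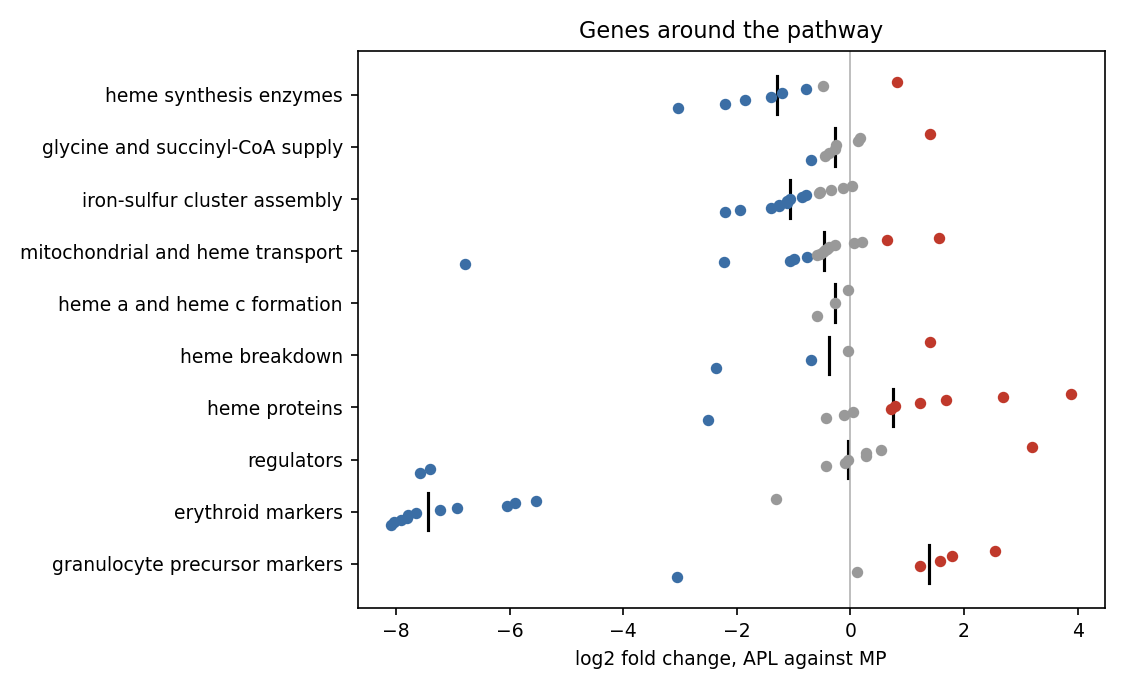
Log2 fold change of each tested gene in lists around the pathway, in c-Kit+ APL progenitors against normal MPs, with blue for genes called lower, red higher and grey not called, and a black bar at the median of the list. The erythroid markers cluster at a median of -7.43, far to the left of the heme synthesis enzymes at -1.30.

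Of 9 regulators of the pathway, 2 were lower and 1 higher (46.1% of all genes were called in either direction), with a median of -0.05. Gata1, an activator of erythroid genes, was at 2589, 2661 and 3335 scaled fragments in the MP libraries, against 7.07, 18.2 and 29.6 in APL (log2 -7.40, adjusted p = 5.9e-07 from limma). Klf1, an erythroid factor that binds CACCC letters, fell from 3157 ± 498 to 15.6 ± 2.3 (-7.57, adjusted p = 5.8e-09). Ppargc1a, a coactivator that induces Alas1 in liver, was at 2.81, 2.86 and 1.8 in the MP libraries, against 38.9, 21.7 and 33.3 in APL (3.19, adjusted p = 3.1e-05). Nfe2 (log2 0.53), Bach1 (0.28), Aco1 (0.28) and Nrf1 (-0.43) passed the adjusted p with folds under 1.5. Ireb2 and Eif2ak1 did not pass it.

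Erythroid markers fell in APL progenitors along with 6 of the enzymes. The marker counts below stand beside 24.4% of all genes tested called lower and 21.7% higher. Of 12 in the table, 11 were lower in APL progenitors, and their summed FPKM was 2186 to 2810 in MP libraries and 8.53 to 12.1 in APL libraries, with none at 0 in all libraries of a group. Car1, a carbonic anhydrase of early red cell precursors, went from 38708 ± 6674 to 144 ± 35.6 scaled fragments and Aqp1, a water channel, from 21054 ± 3394 to 79.1 ± 10.4. Slc4a1, a gene of late red cell precursors, was not called. Megakaryocyte markers also fell in 8 of the 10 tested (summed FPKM 83 to 123 and 4 to 5.86), among them Gp5 (log2 -6.54) and Treml1, at least 27.4-fold lower against 3 fragments per library. Of 6 granulocyte precursor markers, 4 were higher, among them Ctsg (2.55) and Elane (1.78). Fcnb was lower (-3.06), the largest change among the 6, and Prtn3 was not called. The summed FPKM of the 6 was 8855 to 10079 in MPs and 24199 to 28643 in APL progenitors. The summed FPKM of eosinophil markers was 143 to 262 and 26.6 to 44.5, with 4 of 5 lower, among them Epx and Prg2 (log2 -2.50). In these bulk libraries, fewer cells of a type and less RNA per cell cannot be told apart. The part of the erythroid and megakaryocytic progenitors of the MP gate in the values of the 8 enzymes was not tested.

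Markers of other cell types went both ways, beside 24.4% of all genes tested called lower and 21.7% higher. The lineage gate of the MPs and the c-Kit gate of both groups are meant to exclude mature neutrophils, B cells and T cells. How completely they did so was not tested. Monocyte markers had a summed FPKM of 880 to 1055 in MP libraries and 10872 to 11196 in APL libraries, with 3 of 7 lower and 3 higher. Ly6c2 alone held 790 to 945 and 10600 to 10915 of these sums, and the other 6 markers 89.3 to 110 and 258 to 281. Among these Ly6c2 (log2 3.61) and F13a1 (2.79) rose, and Irf8 (-4.91) and Cx3cr1 (-2.82) fell. Mast cell and basophil markers had a summed FPKM of 84.1 to 112 and 42.9 to 51, with 6 of 8 lower, led by Cpa3 (-5.48) and Gata2 (-5.33), and Mcpt8 higher (1.13). Without Mcpt8 these sums were 69.7 to 92.6 and 7.5 to 10.9. Mature neutrophil markers overlapped between the groups in summed FPKM, at 1145 to 2392 and 1200 to 1365, with Ngp and Ltf lower and Retnlg higher of 7. B cell markers (12.9 to 15.5 and 7.08 to 9.5) and T cell markers (3.69 to 5.64 and 2.37 to 3.23) were low in both groups, with 3 of 5 (among them Cd79b) and 1 of 3 (Cd4) lower, and Vpreb1 higher. Their part in the values of the 8 enzymes was not tested.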

How the data were processed

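RNA-seq of 6 libraries was used, 3 of MPs and 3 of c-Kit+ APL progenitors. The authors deposited FPKM values, relative to transcript length and depth, and fragment values, a signal that they had divided by a library factor. Of nonzero values up to 20 fragments, 90.3% to 91.6% were whole multiples of 1 fragment within 0.02. Since the others were fractions, no count test was used. The submitters' processing notes name CASAVA 1.8, TopHat2 2.0.6 and mm10, and the paper's methods STAR with mm9, HTSeq-count and DESeq2. Which of these made the table is not given in the sources used here. Its loci follow GRCm38 (mm10).

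Differences were tested with limma 3.58.1 in R 4.3.3 (lmFit, then eBayes using a trend) on log2(scaled fragments + 1). On simulated data of 15368 genes, 90 of 100 genes changed 2-fold and 100 of 100 changed 4-fold were recovered, with 1 false call. Only 200 genes were changed there, none with a low mean. The simulation used the same setting of spread for all genes and no differences in depth. In the data, 67% of genes passed the adjusted p, so these rates need not hold for them or for rare genes. Single values were compared by exact permutation. Intervals and p-values cover the spread between these libraries. Figures were drawn with matplotlib 3.10.9.

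The genes and lists were chosen with earlier results of these data known. Besides the 8 enzymes, each list is represented by the 2 genes with the largest decrease and the 2 with the largest increase, plus Gata1, Klf1, Slc25a38, Hmox1, Kit and Ly6a. Mpo and other genes named beyond this rule, mostly genes not called, were chosen after their values were seen, and some genes under the rule that were not called are left unnamed. Some genes of the pathway and of the lists are not reported here. The alternatives covered the pseudocount, filter, scaling, voom weights, FPKM, a replicate block, the thresholds and each library left out.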

Additional observations from a re-analysis of the deposited data

How the results depend on the processing

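All 21 alternatives planned were run for the counts of enzymes. Between 5 and 7 enzymes were lower, against 6, and Alas1 was higher in all but 2: with a fold change over 2, and with a test against a fold change of 1.5, the number of enzymes higher in APL progenitors was 0. These also lost Fech. Ppox was gained with equal totals, voom weights or no fold threshold, and Alas2 lost with FPKM, where it was below the filter. Leaving out single libraries, the number lower was 6 to 6, the number higher 1 to 1 and the log2 ratio of Alas2 to Alas1 -4.28 to -3.93; with 0.1 added to FPKM the ratio was -3.13. Of 142 log2 fold changes of the 8 genes under the alternatives other than those of the thresholds, 140 kept direction and call, 2 (Ppox) became called and 0 were reversed. Over all genes, FPKM gave 1980 lower genes with a pseudocount of 1 and 2239 with 0.1, and no fold threshold 5443, against 3558. Dropping the fold limit can only add genes. On FPKM, 11131 genes passed the filter, against 14595, and the cause of the smaller counts was not tested further. In no list does a p that missed the threshold show that values did not differ. In related lists, the number lower was 3 to 12 (5) for transport and 0 to 5 (1) for precursor supply, and the number higher 2 to 6 (6) for heme proteins and 0 to 4 (1) for regulators, with the value of the report in parentheses. The values of Alas2 in APL libraries are 4, 6 and 3 fragments before scaling by the inferred factor.

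With a replicate block for the library number, 6 enzymes were lower and 1 higher and the log2 ratio was -4.11. Deviations of same-numbered libraries correlated at 0.0416 to 0.214 over 10310 genes (mean 0.155). Those of libraries with other numbers correlated at -0.345 to 0.2 (mean -0.0772). Not every library correlated best with its own number. The numbers come from the titles alone and were not taken as pairs in the main fit. The blocked fit called 3589 genes lower and 3164 higher, against 3558 and 3167.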
